A study of Mus musculus with 12 samples.

Results

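The 41 genes described here encode the complement and coagulation factors of the liver, together with their inhibitors, the fibrinolytic factors, the vitamin K enzymes and the fibrinogen-like gene Fgl1. They are the rows of the deposited count table whose gene name equals one of 41 listed symbols, out of 56748 genes, and each symbol matched a row. The study addressed hepatic ABHD6, a serine hydrolase that breaks down monoacylglycerols, in mice of the C57BL/6 strain. RNA was sequenced from 12 libraries in 4 groups of 3. The siABHD6 cultures are primary hepatocytes labelled with ABHD6 knockdown, and the siScramble cultures are wild-type primary hepatocytes with a scrambled siRNA, both with no further treatment. The OE livers carry ABHD6 from an AAV8 vector injected into the tail vein, under the TBG promoter, which drives transgenes in hepatocytes, and their genotype is labelled LABHD6 OE. Knockout livers that the design text also names are not analysed here. The GFP livers are the wild-type controls, and both liver groups came from mice kept 8 weeks on a high-fat diet, in which fat supplied 60% of calories. The age and sex of the mice, the vector of the GFP controls, the time in culture, the siRNA dose and whether cultures came from separate animals are not given in the labels, so p-values measure the spread between these samples.

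Complement is a cascade of plasma proteases and pore-forming proteins. The classical and lectin pathways start it, C3 amplifies it, and the terminal components assemble a pore in the target membrane. Coagulation factors form a second protease cascade that ends in thrombin, held in check by serpins and the protein C pathway, while plasmin dissolves the clot. Hepatocytes secrete most of these proteins, and several of them are acute-phase proteins whose production increases in inflammation.

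Library totals ran from 12295733 to 16234658 counts. Abhd6 itself had 3.78, 4.06 and 3.87 CPM (counts scaled to a common library size) in siABHD6 cultures, against 27.9, 25.7 and 25.7 CPM in siScramble cultures, and 241, 136 and 201 CPM in OE livers, against 57.2, 51.1 and 32.2 CPM in GFP livers. CPM values use TMM effective sizes computed over all 12 libraries, so the 4 groups share a scale. The hepatocyte genes of the cultures stood far below those of the livers: Alb took 1.12% to 1.21% of the counts in cultures and 3.83% to 8.68% in livers, and Cyp7a1, the rate-limiting enzyme of bile acid synthesis, had no count in any culture. Among the livers, GFP liver 3 and OE liver 1 stood apart from the others, and their part in the results is given below.

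The promoters of 3 pairs of members are shown first, because the members of each pair had different values in a result described below. Mbl1 and Mbl2 are mannose-binding lectins that start the lectin pathway, and between cultures and livers Mbl1 was among the 3 largest decreases while Mbl2 did not pass the test. C8a and C8b encode chains of the same pore component and lie 11130 bases apart on opposite strands, and C8a fell in siABHD6 cultures while C8b did not pass the test. F11 and Klkb1 encode the contact factors XI and prekallikrein and lie 4657 bases apart on the same strand, and F11 was high in the livers that stood apart while Klkb1 was not. The sequences are RefSeq promoters of build GRCm38.p6, from 250 bases before to 50 bases after the start of the gene, and 31 of the 41 members matched the table. Capitals in Mbl1, at chr14:41151206-41151505 on the plus strand, and Mbl2, at chr19:30232678-30232977 on the plus strand, mark their longest shared run, of 13 bases.
Mbl1: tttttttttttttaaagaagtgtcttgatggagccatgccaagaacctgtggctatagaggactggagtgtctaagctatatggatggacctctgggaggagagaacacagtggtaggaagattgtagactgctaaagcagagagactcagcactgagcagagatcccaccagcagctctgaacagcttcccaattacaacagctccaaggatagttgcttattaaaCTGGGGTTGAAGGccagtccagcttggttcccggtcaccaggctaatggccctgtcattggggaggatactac
Mbl2: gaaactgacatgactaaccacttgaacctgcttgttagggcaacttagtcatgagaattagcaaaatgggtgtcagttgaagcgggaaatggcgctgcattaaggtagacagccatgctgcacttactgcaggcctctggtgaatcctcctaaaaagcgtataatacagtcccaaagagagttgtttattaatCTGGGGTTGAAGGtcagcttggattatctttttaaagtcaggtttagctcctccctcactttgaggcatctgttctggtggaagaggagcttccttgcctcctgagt
Capitals in C8a, at chr4:104876349-104876648 on the minus strand, and C8b, at chr4:104766067-104766366 on the plus strand, mark their longest shared run, of 7 bases.
C8a: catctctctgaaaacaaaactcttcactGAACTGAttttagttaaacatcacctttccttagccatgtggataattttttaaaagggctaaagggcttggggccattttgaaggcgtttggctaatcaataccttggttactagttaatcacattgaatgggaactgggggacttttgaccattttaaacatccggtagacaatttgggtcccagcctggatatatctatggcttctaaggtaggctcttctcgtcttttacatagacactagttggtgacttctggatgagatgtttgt
C8b: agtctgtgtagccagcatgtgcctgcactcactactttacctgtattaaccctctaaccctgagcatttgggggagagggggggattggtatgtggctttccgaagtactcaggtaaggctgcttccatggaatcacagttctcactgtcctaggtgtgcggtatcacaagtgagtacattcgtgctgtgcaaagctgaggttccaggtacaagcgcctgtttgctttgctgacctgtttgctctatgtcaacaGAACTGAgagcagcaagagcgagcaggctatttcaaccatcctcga
Capitals in F11, at chr8:45261982-45262281 on the minus strand, and Klkb1, at chr8:45294786-45295085 on the minus strand, mark GTAAACA, the core of the forkhead (FOX) motif, which begins 25 bases before the F11 start and 21 bases before the Klkb1 start.
F11: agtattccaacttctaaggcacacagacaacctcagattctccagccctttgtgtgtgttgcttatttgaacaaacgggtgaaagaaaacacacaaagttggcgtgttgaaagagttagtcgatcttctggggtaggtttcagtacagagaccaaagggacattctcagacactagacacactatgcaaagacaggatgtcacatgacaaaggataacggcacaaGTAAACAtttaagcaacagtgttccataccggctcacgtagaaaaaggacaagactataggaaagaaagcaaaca
Klkb1: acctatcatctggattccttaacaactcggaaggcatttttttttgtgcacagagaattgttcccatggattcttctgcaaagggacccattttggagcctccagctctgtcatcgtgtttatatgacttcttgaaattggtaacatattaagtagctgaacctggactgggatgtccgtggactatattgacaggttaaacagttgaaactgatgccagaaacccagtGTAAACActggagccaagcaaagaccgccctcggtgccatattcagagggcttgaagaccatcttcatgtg

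Motifs were searched on either strand. The C/EBP motif TTNNGNAA lay in 19 of the 31 matched promoters (61.3%), against 40.7% of all 27025 promoters of the table, and the STAT motif TTCNNNGAA in 6 (19.4%), against 8.47%. GTAAACA lay in the promoters of Vkorc1, F11 and Klkb1 (9.7%), against 3.55% of all, TATAAA in 4 (12.9%), against 14.2%, and the HNF4 motif CAAAGTCCA in 0, against 0.477%. These matches are letters in a fixed window, and no binding was measured.

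Per kilobase of gene length, C3, the component on which all complement pathways converge, had the highest level in every group, with 449 ± 27.2 CPM per kb in siABHD6 cultures and 436 ± 9.68 CPM per kb in siScramble cultures, and 1903 ± 833 CPM per kb in OE livers and 2212 ± 1449 CPM per kb in GFP livers (mean ± SD, n = 3 each). In GFP livers the next highest levels were those of Vtn, Kng1 and Plg, with means of 1451, 924 and 829.9 CPM per kb. In siScramble cultures they were those of Mbl2, Cpb2 and Vtn, with means of 397, 216 and 199 CPM per kb. Plasminogen, encoded by Plg, ranked 4 of 41 in GFP livers and 22 of 41 in siScramble cultures, whereas Mbl2 ranked 2 in siScramble cultures and 10 in GFP livers. The lowest mean was that of Klkb1 in siScramble cultures, at 0.844 CPM per kb, and that of Cfb in GFP livers, at 3.38 CPM per kb. Over GFP livers 1 and 2 alone C3, Vtn, Kng1 and Plg kept that order, with means of 1375, 974, 689 and 635 CPM per kb, and Mbl2 ranked 7. Over OE livers 2 and 3 alone C3 averaged 1422 CPM per kb. All 41 members together took 1.02% to 1.08% of the counts in cultures and 2.58% to 4.996% in livers.

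**Figure D1:**
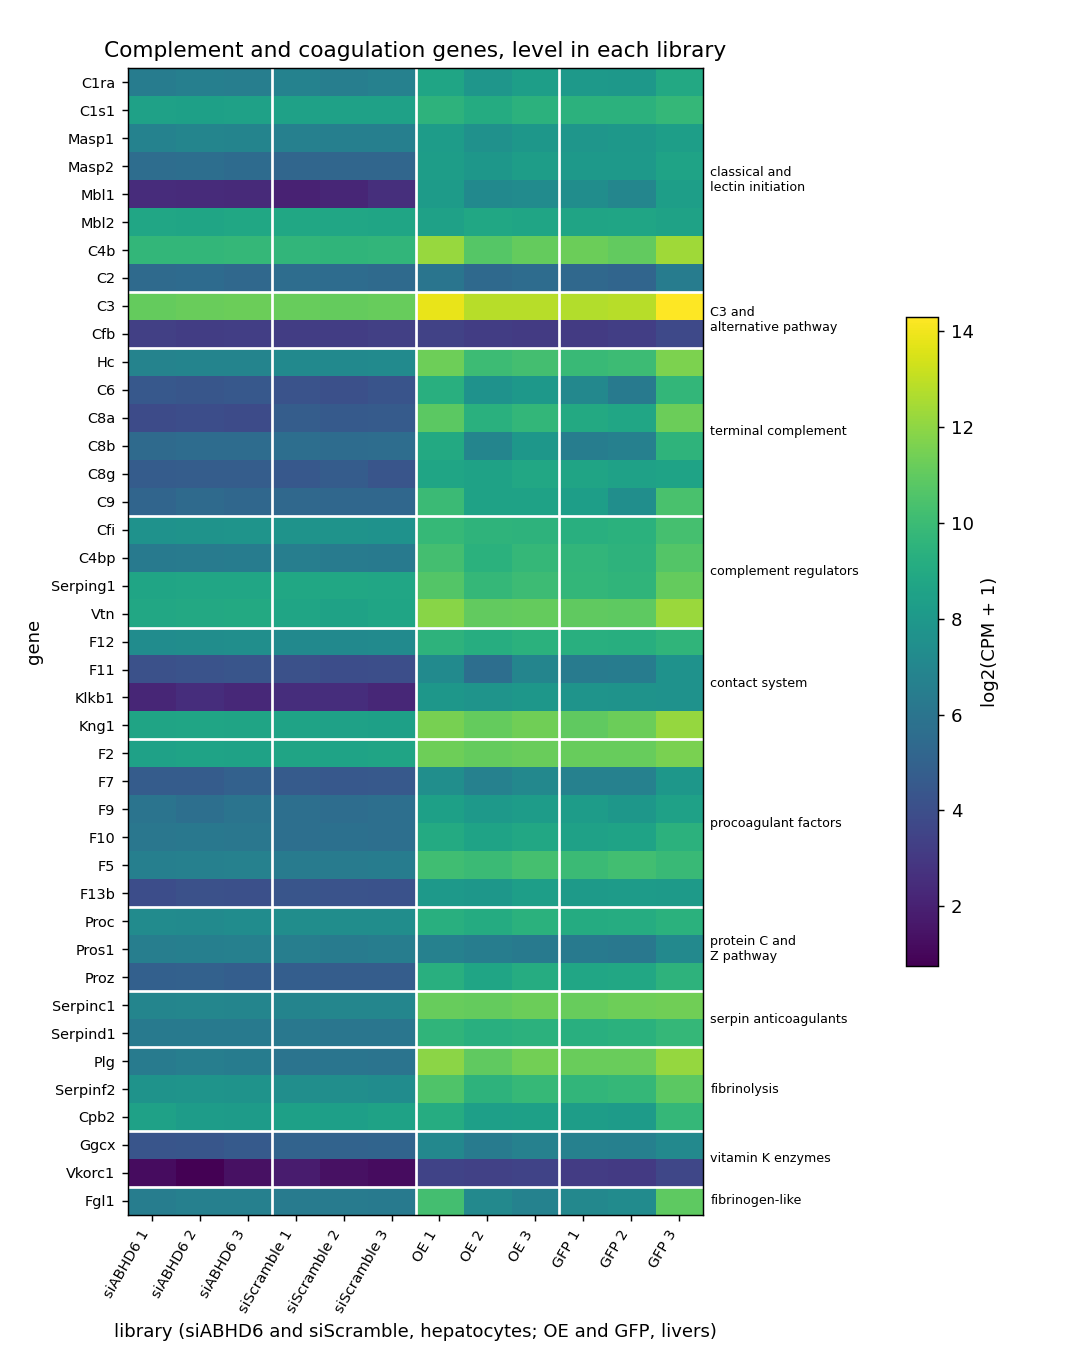
Level of each of the 41 genes in each library, as log2(CPM + 1) on a colour scale, with genes ordered by role and libraries by group (3 siABHD6 and 3 siScramble hepatocyte cultures, 3 OE and 3 GFP livers). Most rows are darker in the cultures, those of Mbl2, Cfb, C2, Pros1 and Cpb2 are not, and OE 1 and GFP 3 are brighter than the other livers in most rows.

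Some of these levels are uncertain because of overlapping or near-identical genes, and whether reads were counted by strand is not given in the sources used here. Cfb shares 6107 bases with Gm20547 on its own strand, and Vkorc1 shares 2392 bases with Gm21974 on its own strand. Those partners had 0 and 3 counts over the 12 libraries, and how reads in both genes were assigned is not given, so the low levels of Cfb and Vkorc1 are uncertain. C2 also overlaps Gm20547, and Klkb1 overlaps Gm45753 on its own strand. C4b, C1ra, C1s1 and Kng1 have the near copies C4a, C1rb, C1s2 and Kng2. Masp2, C8g, Serpind1, Masp1, Serpinc1 and C2 overlap Tardbp, Fbxw5, Pi4ka, Rtp4, Zbtb37 and Zbtb12 on the opposite strand, and without strand such reads cannot be told apart.

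The question of how far cultured hepatocytes keep the liver's plasma-protein programme was addressed by setting siScramble cultures against GFP livers. Of the 41 members, 36 were lower in the cultures, 0 were higher and 5 passed in neither direction (edgeR's quasi-likelihood test, Benjamini-Hochberg adjusted p under 0.05 over 14215 genes). Among all genes tested, 36.9% were lower and 33.3% were higher, 70.3% in all. The members' median log2 fold change was -2.83, against -0.03 over all genes, and 30 of the 41 were at least 4-fold lower, against 15.9% of all genes. In 7 members the fitted level in culture was under 5% of that in the livers, in 23 it was from 5% to 25%, in 6 from 25% to 50%, and in 5 it was 50% or more. Without GFP liver 3 the median was -2.33, against -0.00 over all genes, 25 members were at least 4-fold lower, against 17.1% of all genes, and the 4 ranges held 3, 22, 8 and 8 members. Less RNA per cell and fewer hepatocytes among the cells cannot be told apart in bulk samples, and cell isolation, diet, vector and siRNA all differ between these groups and cannot be told apart either.

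**Figure D2:**
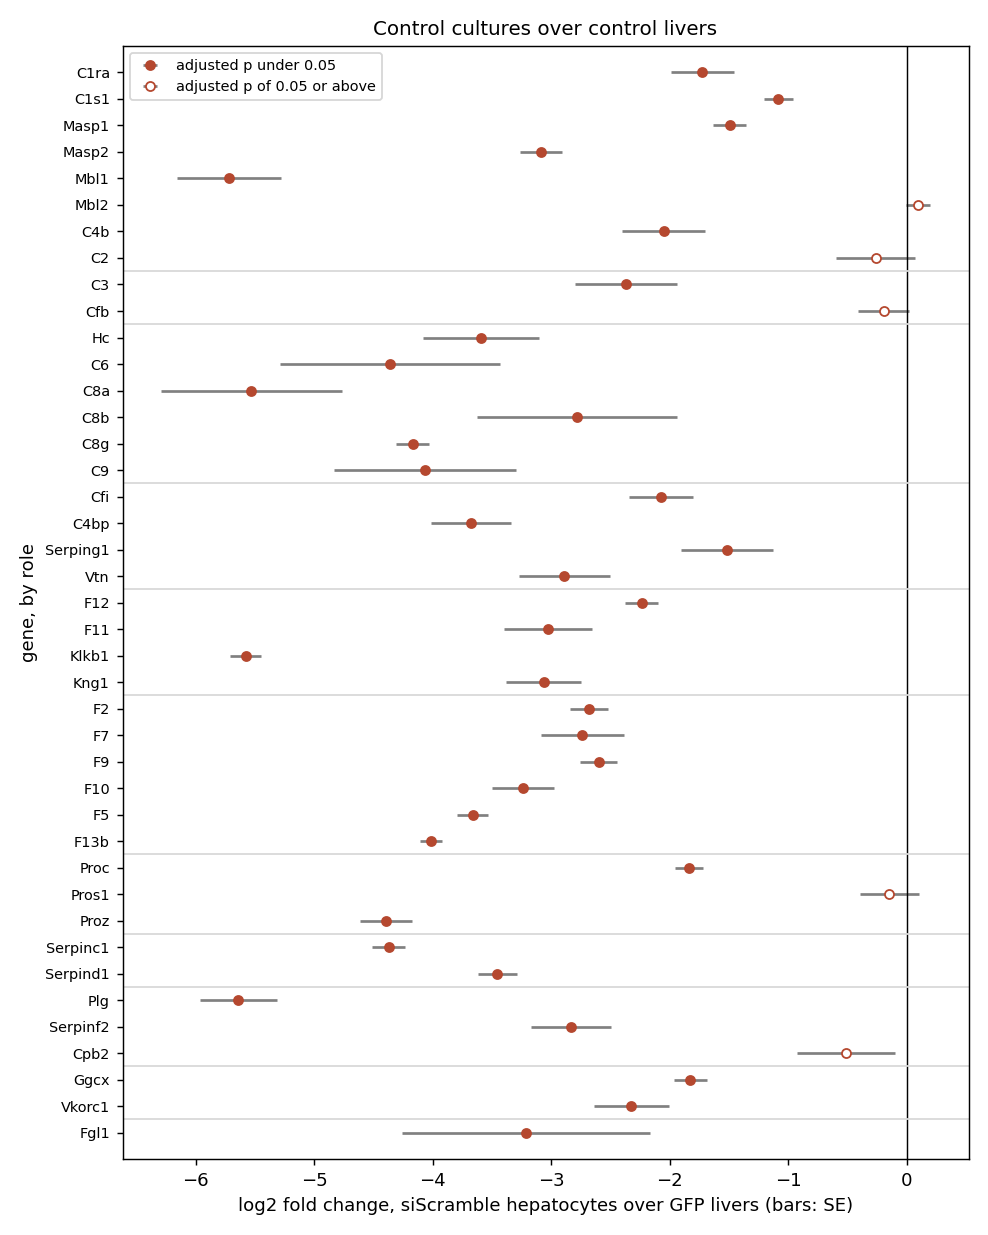
Log2 fold change of each of the 41 genes in siScramble cultures over GFP livers on the x axis, with bars for the SE, ordered by role down the y axis. Filled points passed an adjusted p of 0.05. They run from -5.72 for Mbl1 to -1.08 for C1s1, and the 5 open points, Mbl2, Pros1, Cfb, C2 and Cpb2, lie between -0.51 and 0.10.

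In the classical and lectin group, 6 of 8 members were lower and the median log2 fold change was -1.61. Mbl1 had 3.11, 3.57 and 5.10 CPM in siScramble cultures, against 167, 123 and 319.9 CPM in GFP livers (log2 fold change -5.72, SE 0.44, edgeR adjusted p = 3.39e-05). Every culture was far below every liver, and the fitted level was 1.90% of that in GFP livers. Mbl2 had 444, 429 and 425 CPM in siScramble cultures, against 405, 415 and 370.2 CPM in GFP livers (log2 fold change 0.10, SE 0.10, edgeR adjusted p = 0.402). Each siScramble culture stood slightly above each GFP liver, as for 38.5% of all genes tested, but the difference did not pass the test. Mbl1 lies at chr14:40873415-40881558 and Mbl2 at chr19:30210342-30217087 (mm39), on different chromosomes. C2, the protease zymogen of the classical and lectin convertase, had 47.8, 44.9 and 42.8 CPM in siScramble cultures, against 38.7, 34.6 and 86.7 CPM in GFP livers (log2 fold change -0.26, SE 0.33, edgeR adjusted p = 0.501). Its culture values lay between those of GFP liver 3 and the other GFP livers. The proteases that act upstream of C2 were lower, with changes of -3.09 in Masp2, -1.72 in C1ra, -1.49 in Masp1 and -1.08 in C1s1 on the log2 scale, and C4b, which encodes component C4, changed by -2.05.

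C3 had 2299, 2206 and 2222 CPM in siScramble cultures, against 6903, 7244 and 19978 CPM in GFP livers (log2 fold change -2.37, SE 0.43, edgeR adjusted p = 0.00216). Each culture was below each liver. Cfb, the protease of the alternative pathway convertase, had 8.36, 8.19 and 8.90 CPM in siScramble cultures, against 7.50, 8.64 and 12.5 CPM in GFP livers (log2 fold change -0.19, SE 0.21, edgeR adjusted p = 0.44). The culture values lay within the range of the livers.

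The terminal components, which form the membrane pore, were all 6 lower, with a median log2 fold change of -4.11. That median rested on GFP liver 3 and was -2.77 without it, when the lowest of the role groups was that of the 2 serpin anticoagulants, at -3.79, against -3.91 with it. C8a had 25.6, 23.4 and 24.2 CPM in siScramble cultures, against 503, 430.3 and 2388 CPM in GFP livers (log2 fold change -5.53, SE 0.76, edgeR adjusted p = 5.43e-04). The groups were far apart, and GFP liver 3 was well above the other livers. C6 had 17.7, 15.7 and 18.0 CPM in siScramble cultures, against 133, 76.1 and 832 CPM in GFP livers (log2 fold change -4.36, SE 0.93, edgeR adjusted p = 0.00438). C9, which polymerises into the pore, had 38.7, 37.3 and 37.4 CPM in siScramble cultures, against 326, 172 and 1365 CPM in GFP livers (log2 fold change -4.06, SE 0.77, edgeR adjusted p = 0.00255). In both, the groups did not overlap and GFP liver 3 was again the highest. C8g had 21.1, 24.97 and 19.2 CPM in siScramble cultures, against 408, 355 and 387 CPM in GFP livers (log2 fold change -4.17, SE 0.14, edgeR adjusted p = 1.14e-06), with livers close to each other. Hc, the mouse gene of complement component C5, changed by -3.59 and C8b by -2.78 (SE 0.84) on the log2 scale. The C8b call was lost when any of the siScramble libraries was left out, with fold changes of -3.19 to -1.03 over the libraries left out.

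All 4 complement regulators were lower. C4bp, a cofactor for the breakdown of C4b, changed by -3.68 (SE 0.34), and Vtn, vitronectin, which blocks pore insertion, by -2.89 (SE 0.38) on the log2 scale. Cfi, the protease that inactivates C3b and C4b, changed by -2.07 (SE 0.27), and Serping1, the inhibitor of the C1 proteases and of the contact factors, by -1.52 (SE 0.39).

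Among the coagulation and fibrinolysis genes, log2 fold changes ran from -5.64 for Plg to -0.15 for Pros1. Of the contact factors, Klkb1 had 4.80, 4.74 and 3.74 CPM in siScramble cultures, against 213, 210.1 and 201 CPM in GFP livers (log2 fold change -5.58, SE 0.13, edgeR adjusted p = 6.13e-07). No culture reached 5 CPM, and the livers were within a narrow range. F11 changed by -3.02 (SE 0.37), Kng1, kininogen, by -3.06 (SE 0.32) and F12 by -2.24 (SE 0.14) on the log2 scale. The 6 procoagulant factors were all lower. F13b, the carrier subunit of the clot-stabilising factor XIII, had 18.7, 17.8 and 17.1 CPM in siScramble cultures, against 284, 285 and 282 CPM in GFP livers (log2 fold change -4.01, SE 0.09, edgeR adjusted p = 6.13e-07), with the smallest SE of the 41 members. The others were F5 at -3.66, F10 at -3.24, F7 at -2.74, F2, prothrombin, at -2.68 and F9 at -2.60 on the log2 scale.

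The natural anticoagulants differed widely. Proz, the cofactor of an inhibitor of factor X, had 26.7, 25.7 and 26.3 CPM in siScramble cultures, against 439.8, 467 and 716 CPM in GFP livers (log2 fold change -4.39, SE 0.22, edgeR adjusted p = 4.88e-06). Serpinc1, antithrombin, had 117, 124 and 123 CPM in siScramble cultures, against 2236, 2502 and 2658 CPM in GFP livers (log2 fold change -4.37, SE 0.14, edgeR adjusted p = 9.81e-07). In both genes every culture was far below every liver. Pros1, protein S, the cofactor of activated protein C, had 92.0, 83.3 and 88.5 CPM in siScramble cultures, against 76.4, 70.8 and 139.7 CPM in GFP livers (log2 fold change -0.15, SE 0.25, edgeR adjusted p = 0.622). Its cultures lay within the range of the livers, above GFP livers 1 and 2 and below GFP liver 3. Proc, protein C, changed by -1.84 (SE 0.12), and Serpind1, heparin cofactor, by -3.45 (SE 0.17) on the log2 scale.

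Of the fibrinolytic factors, Plg had 62.3, 64.4 and 62.1 CPM in siScramble cultures, against 2339, 2375 and 4525 CPM in GFP livers (log2 fold change -5.64, SE 0.33, edgeR adjusted p = 9.08e-06). Its groups were far apart. Serpinf2, the plasmin inhibitor antiplasmin, changed by -2.83 (SE 0.34) on the log2 scale. Cpb2, a carboxypeptidase that slows fibrinolysis, had 349, 339 and 368 CPM in siScramble cultures, against 309, 294 and 878 CPM in GFP livers (log2 fold change -0.51, SE 0.42, edgeR adjusted p = 0.299), so its cultures lay within the livers' range. The vitamin K enzymes were both lower. Ggcx, which carboxylates the vitamin K-dependent factors, changed by -1.83 (SE 0.14) and Vkorc1, which recycles the vitamin, by -2.32 (SE 0.31) on the log2 scale. Fgl1, a secreted protein of the fibrinogen family, changed by -3.21 (SE 1.04), and its call was lost when any of the siScramble libraries was left out.

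Several of these values depended on GFP liver 3 and on the scaling. Without GFP liver 3, the log2 fold change was -0.86 for Fgl1, -1.03 for C8b, -2.63 for C6, -2.73 for C9, -4.27 for C8a, -2.80 for Hc, -0.87 for Serping1 and -1.67 for C3, and all of them stayed called. C4b was at -1.52 and Cfi at -1.69 in that fit, and the largest decreases were those of Klkb1 at -5.59, Plg at -5.24 and Mbl1 at -5.23. In the same fit, C2 at 0.29, Pros1 at 0.24 and Cpb2 at 0.21 on the log2 scale were called higher in the cultures, against 37.2% of all genes, and 36 members were lower, against 39.3%. Scaled by library totals alone, the median log2 fold change of all genes moved to 0.80. On that scale 32 members were lower and Mbl2 at 0.92, Pros1 at 0.71 and Cfb at 0.65 were called higher, and C1s1, C8b, Serping1 and Fgl1 lost their calls. Of all genes, 11311 of 14215 were called on that scale in either direction. The pair of ABHD6-modified groups, siABHD6 cultures against OE livers, also had 36 members lower and 0 higher. In that comparison 10577 of 14315 genes were called in either direction.

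Markers of other liver cells moved between the same groups, and in most lists 1 marker made up most of the sum in the cultures. Among all genes tested between these groups, 36.9% were lower and 33.3% were higher. Of 11 Kupffer cell markers 10 were lower, with a summed level of 2.03 to 2.26 CPM in siScramble cultures and 361 to 489.6 CPM in GFP livers. The other one, Cd68, was higher, at 60.0 to 65.5 CPM in siScramble cultures and 7.20 to 13.3 CPM in GFP livers. All 10 endothelial markers were lower, with sums of 27.3 to 28.2 CPM in siScramble cultures and 259 to 348 CPM in GFP livers. All 10 stellate cell markers were lower too. Ecm1 had 18.1 to 20.0 CPM in siScramble cultures and 57.4 to 167 CPM in GFP livers, and the other 9 summed to 3.62 to 3.99 CPM in siScramble cultures and 181 to 575 CPM in GFP livers. All 10 hepatocyte markers were lower. Alb had 9023 to 9155 CPM in siScramble cultures and 70871 to 109556 CPM in GFP livers, and the other 9 summed to 677 to 717 CPM in siScramble cultures and 30413 to 33403 CPM in GFP livers. Cyp7a1 was at 0 in every culture, and Pck1 and G6pc were under 0.3 CPM. Of 6 cholangiocyte markers, 3 could be tested and all 3 were higher. Spp1 made up most of that list, with 480.3 to 528 CPM in siScramble cultures and 52.8 to 90.3 CPM in GFP livers. The part of cell composition in the members' differences was not tested.

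The effect of lowering ABHD6 was examined in siABHD6 against siScramble cultures. Plg, F10, Masp2, Serpinf2, C6 and Vtn had the largest increases among the called members, and C8a, Ggcx and Hc the largest decreases among them, all under 2-fold. In all, 12 members were higher, 6 were lower and 23 passed in neither direction, by edgeR's quasi-likelihood test with Benjamini-Hochberg adjustment over 13449 genes. Among all genes tested, 7.81% were higher and 7.61% were lower. The groups did not overlap for 16 members that were higher and 7 that were lower, against 17.6% and 13.5% of all genes. The members' median log2 fold change was 0.03, against -0.00 over all genes. The siScramble cultures also enter the comparison with GFP livers, so the fold changes of the 2 comparisons share samples.

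**Figure D3:**
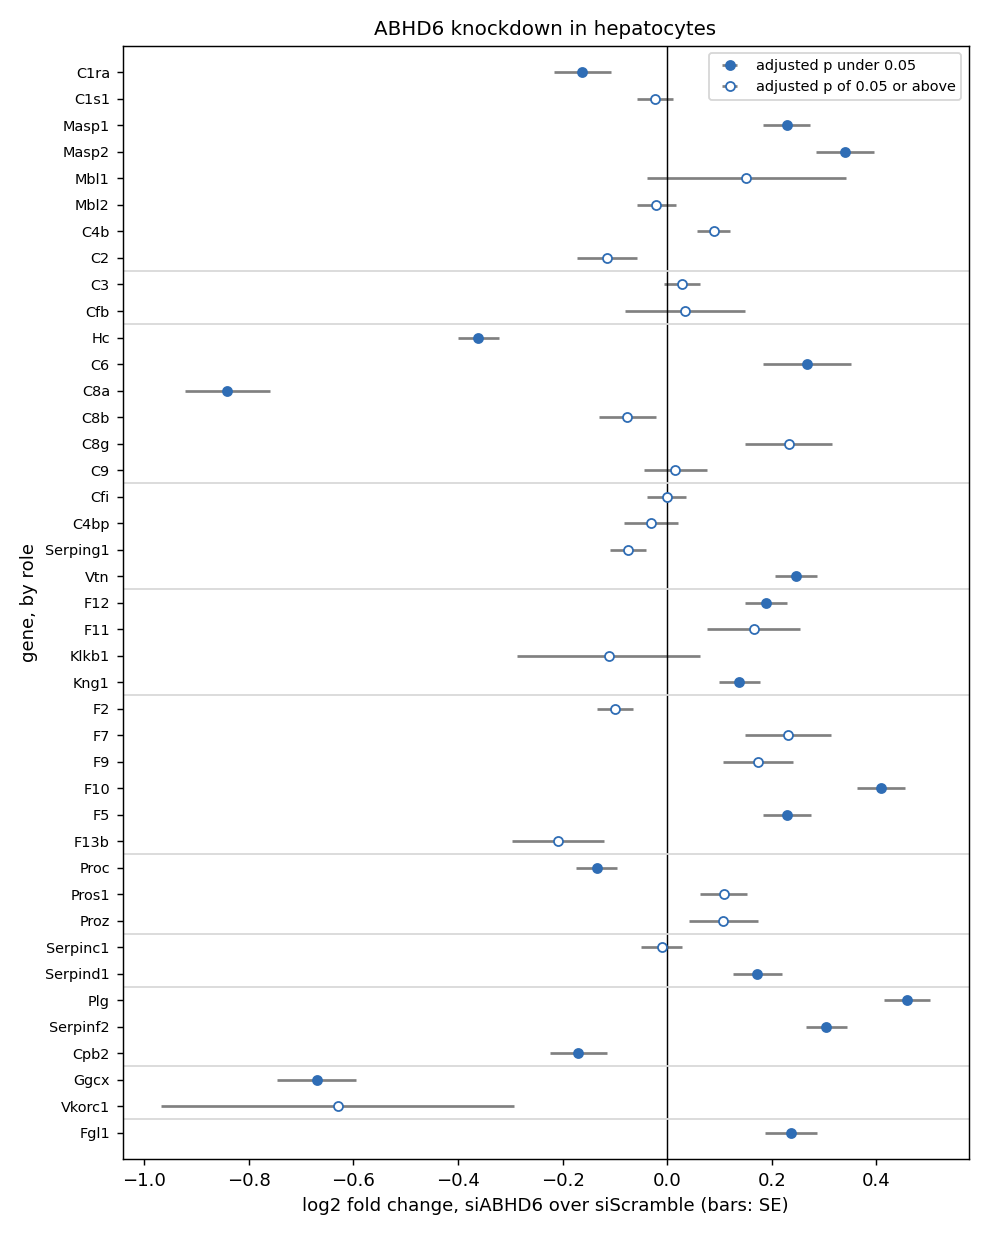
Log2 fold change of each of the 41 genes in siABHD6 over siScramble cultures on the x axis, with bars for the SE, ordered by role down the y axis. Filled points passed an adjusted p of 0.05, with 12 on the higher side, up to 0.46 for Plg, and 6 on the lower side, down to -0.84 for C8a.

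Among the called members, the decreases were largest in the terminal complement genes C8a and Hc and in the vitamin K enzyme Ggcx. C8a had 13.3, 14.6 and 13.2 CPM in siABHD6 cultures, against 25.6, 23.4 and 24.2 CPM in siScramble cultures (log2 fold change -0.84, SE 0.08, edgeR adjusted p = 4.96e-07). Each siABHD6 culture was below 15 CPM and each siScramble culture above 23 CPM. C8b, on the opposite strand next to it at chr4:104623514-104661745 (mm39, with C8a at chr4:104672876-104733595), had 42.7, 46.4 and 45.5 CPM in siABHD6 cultures, against 49.1, 44.8 and 46.6 CPM in siScramble cultures (log2 fold change -0.08, SE 0.05, edgeR adjusted p = 0.408). Its groups overlapped, and the difference between the responses of the 2 genes was not tested. Hc had 111, 114 and 116 CPM in siABHD6 cultures, against 143, 143 and 148 CPM in siScramble cultures (log2 fold change -0.36, SE 0.04, edgeR adjusted p = 2.26e-06), without overlap. C6 went the other way, with 21.4, 19.9 and 21.3 CPM in siABHD6 cultures, against 17.7, 15.7 and 18.0 CPM in siScramble cultures (log2 fold change 0.27, SE 0.08, edgeR adjusted p = 0.0346). C8g, at 0.23 (SE 0.08), and C9, at 0.02 (SE 0.06) on the log2 scale, did not pass the test.

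Ggcx, the carboxylase that the vitamin K-dependent factors need, had 19.0, 19.9 and 23.3 CPM in siABHD6 cultures, against 32.6, 32.0 and 33.4 CPM in siScramble cultures (log2 fold change -0.67, SE 0.08, edgeR adjusted p = 3.49e-06). All siABHD6 cultures were below all siScramble cultures, at 62.8% of their fitted level. Vkorc1 had 1.30, 0.695 and 1.57 CPM in siABHD6 cultures, against 2.48, 1.56 and 1.35 CPM in siScramble cultures. Its log2 fold change of -0.63 was close to that of Ggcx, but with 13 to 44 counts per library its SE was 0.34 and it did not pass. The substrates of Ggcx among the members did not share a direction: F10 was higher, Proc was lower, and F2 at -0.10, F7 at 0.23, F9 at 0.17, Pros1 at 0.11 and Proz at 0.11 on the log2 scale did not pass.

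The largest increase was in the fibrinolytic system. Plg had 84.2, 91.6 and 86.3 CPM in siABHD6 cultures, against 62.3, 64.4 and 62.1 CPM in siScramble cultures (log2 fold change 0.46, SE 0.04, edgeR adjusted p = 4.45e-07). Its groups were well apart. Serpinf2, which inhibits the plasmin made from it, also rose, with 206, 214 and 209 CPM in siABHD6 cultures, against 172, 171 and 160.2 CPM in siScramble cultures (log2 fold change 0.30, SE 0.04, edgeR adjusted p = 1.53e-05). Cpb2 had 355, 304 and 289.8 CPM in siABHD6 cultures, against 349, 339 and 368 CPM in siScramble cultures (log2 fold change -0.17, SE 0.05, edgeR adjusted p = 0.0397), and its groups overlapped, with siABHD6 culture 1 within the range of the siScramble cultures.

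Of the procoagulant factors, F10 and F5 rose. F10 had 67.6, 72.2 and 69.7 CPM in siABHD6 cultures, against 52.0, 53.8 and 50.3 CPM in siScramble cultures (log2 fold change 0.41, SE 0.05, edgeR adjusted p = 3.80e-06). No siABHD6 culture was below any siScramble culture. F5, the cofactor of factor X, changed by 0.23 (SE 0.05) on the log2 scale. In the contact system F12 rose by 0.19 (SE 0.04) and Kng1 by 0.14 (SE 0.04), whereas F11 at 0.17 (SE 0.09) and Klkb1 at -0.11 (SE 0.18) did not pass. Proc had 153, 151 and 158 CPM in siABHD6 cultures, against 169.7, 165 and 168 CPM in siScramble cultures (log2 fold change -0.13, SE 0.04, edgeR adjusted p = 0.0211). Its decrease was small, though the groups did not overlap. Serpind1 rose by 0.17 (SE 0.05) and Fgl1 by 0.24 (SE 0.05) on the log2 scale.

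Among the proteases that start complement, those of the lectin pathway rose. Masp2 had 47.6, 48.7 and 44.2 CPM in siABHD6 cultures, against 36.7, 36.1 and 37.1 CPM in siScramble cultures (log2 fold change 0.34, SE 0.05, edgeR adjusted p = 1.74e-04). Its groups did not overlap, and Masp1 rose by 0.23 (SE 0.05). The classical-pathway protease C1ra had 86.4, 97.7 and 90.9 CPM in siABHD6 cultures, against 108, 93.1 and 103 CPM in siScramble cultures (log2 fold change -0.16, SE 0.05, edgeR adjusted p = 0.0494), with overlapping groups. C1s1, the other classical-pathway protease, was at -0.02 (SE 0.03) and did not pass. A difference between the pathways was not tested. Vtn had 466, 489 and 501 CPM in siABHD6 cultures, against 419, 381 and 414 CPM in siScramble cultures (log2 fold change 0.25, SE 0.04, edgeR adjusted p = 2.21e-04), again without overlap. C3 at 0.03 (SE 0.03), C4b at 0.09 (SE 0.03), Mbl2 at -0.02 (SE 0.04) and the regulators Cfi, C4bp and Serping1 did not pass.

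Of the 18 calls, 12 held when any of the 6 libraries was left out. The call of Kng1 was lost without siScramble culture 2 or 3 or siABHD6 culture 2, and Serpind1 without siScramble culture 2 or 3. C6 was lost without siScramble culture 1 or 2 or siABHD6 culture 1 or 3, Cpb2 without siScramble culture 1 or 3 or siABHD6 culture 2 or 3, C1ra without culture 1 or 3 of either group, and Proc without siScramble culture 1 or 3 or siABHD6 culture 1 or 2. When the spread was estimated over all 12 libraries, in which livers vary more than cultures, 0 members were called, 3 had an unadjusted p under 0.05 and 41 of 15244 genes were called.

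Other genes of the pathways were read from the same fit. On a list of 40 coagulation and fibrinolysis genes that are not among the members, 32 could be tested, 11 were higher and 4 were lower. Of all genes tested, 7.81% were higher and 7.61% were lower. Serpina5, protein C inhibitor, had 6.64, 6.85 and 8.10 CPM in siABHD6 cultures, against 4.07, 4.24 and 5.16 CPM in siScramble cultures (log2 fold change 0.67, SE 0.15, edgeR adjusted p = 0.00472). The fibrinogen chains Fgb, Fgg and Fga rose by 0.41 (SE 0.04), 0.38 (SE 0.06) and 0.36 (SE 0.05) on the log2 scale. The largest decreases among the called genes were in Hgfac at -0.32 (SE 0.05), Mug1 at -0.28 (SE 0.05) and F3, tissue factor, at -0.21 (SE 0.05). On a list of 34 further complement genes, 14 could be tested. Cfhr2 was higher, at 0.29, and Cr1l was lower, at -0.17. In siScramble cultures against GFP livers, 24 of 26 tested genes of the complement list were lower and 1, Clu, was higher at 2.03. Of the coagulation list, 23 of 35 were lower and 9 were higher. Among all genes tested there, 36.9% were lower and 33.3% were higher. The higher coagulation genes included Plaur, Plat and F3, at 5.36, 4.46 and 2.83 on the log2 scale. The complement list included C1qa, C1qb, C1qc and Vsig4, which are also on the list of Kupffer cell markers.

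In the livers, overexpression of ABHD6 was set against GFP. No member passed the test, with 0 of 41 called higher or lower and 0% of the 13910 genes tested called (edgeR's quasi-likelihood test, Benjamini-Hochberg adjusted p under 0.05). None of the 41 had an unadjusted p under 0.05, against 2.16% of all genes, and DESeq2, which called 0.0491% of all genes, and limma-voom also called 0 members. The log2 fold change was negative in 32 members and positive in 9, with a median of -0.09 and SEs from 0.12 to 1.27. At this spread, changes of the size seen in the cultures were not detectable in most members. Larger changes could be missed too. Abhd6 itself was not called, although its OE livers, at 136 to 241 CPM, were all above its GFP livers, at 32.2 to 57.2 CPM. The absence of calls therefore does not show that the members were unchanged.

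Klkb1 had the smallest p of the 41, an unadjusted 0.202, with 242, 214 and 245 CPM in OE livers, against 213, 210.1 and 201 CPM in GFP livers (log2 fold change 0.17, SE 0.12). It was the only member whose groups did not overlap, and 3.11% of all genes were higher and 3.63% lower without overlap. C8g had 415, 374 and 463 CPM in OE livers, against 408, 355 and 387 CPM in GFP livers (log2 fold change 0.13, SE 0.15). Vkorc1 had 10.4, 9.28 and 10.1 CPM in OE livers, against 7.89, 7.21 and 11.61 CPM in GFP livers (log2 fold change 0.16, SE 0.23). Both pairs of groups overlapped. On the negative side, C1s1 had 725, 549 and 698 CPM in OE livers, against 701, 691 and 858 CPM in GFP livers (log2 fold change -0.19, SE 0.19), Kng1 had 2921, 2174 and 2625 CPM in OE livers, against 2051, 2426 and 4536 CPM in GFP livers (log2 fold change -0.22, SE 0.33), and Cfb had 9.59, 8.45 and 7.61 CPM in OE livers, against 7.50, 8.64 and 12.5 CPM in GFP livers (log2 fold change -0.15, SE 0.24). In these 3 genes the groups overlapped and GFP liver 3 was the highest liver of its group.

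A pair of libraries, 1 in each group, was high for most members. OE liver 1 was the highest of its 3 livers for 33 of the 41 members, against 35.2% of all genes, and GFP liver 3 was the highest of its group for 36, against 39.6%. OE liver 1 was at least 2-fold above the mean of the other OE livers for 8 members, against 2.85% of all genes. GFP liver 3 was likewise above the other GFP livers for 18 members, against 5.54%, and these included the 8. Over the 41 genes the ratios of the 2 libraries had a Spearman rank correlation of 0.93, a description over genes that share these libraries. Both libraries also had the highest sums of the 21 acute-phase genes, 41657 CPM in OE liver 1 and 83019.9 CPM in GFP liver 3, against 14270 to 17068 CPM in the other livers. Saa1 alone had 2413, 114 and 41.2 CPM in OE livers, against 79.2, 42.9 and 8039 CPM in GFP livers. The same libraries had the lowest sums of their groups for the 10 hepatocyte markers, with 85636, 133848 and 152278 CPM in OE livers, against 127101, 142622 and 104274 CPM in GFP livers. Alb made up most of these sums, with 50531, 102127 and 111949 CPM in OE livers, against 96688, 109556 and 70871 CPM in GFP livers. Without Alb neither library was the lowest. The other 9 markers summed to 30413 to 33403 CPM in GFP livers, with GFP liver 3 the highest, and OE liver 1 lay between the other OE livers. OE liver 1 and GFP liver 3 were also the lowest for the 10 stellate cell markers, with 413, 755 and 527 CPM in OE livers, against 738, 691 and 239 CPM in GFP livers. The part of the acute-phase level and of these markers in the members' variation was not tested.

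**Figure D4:**
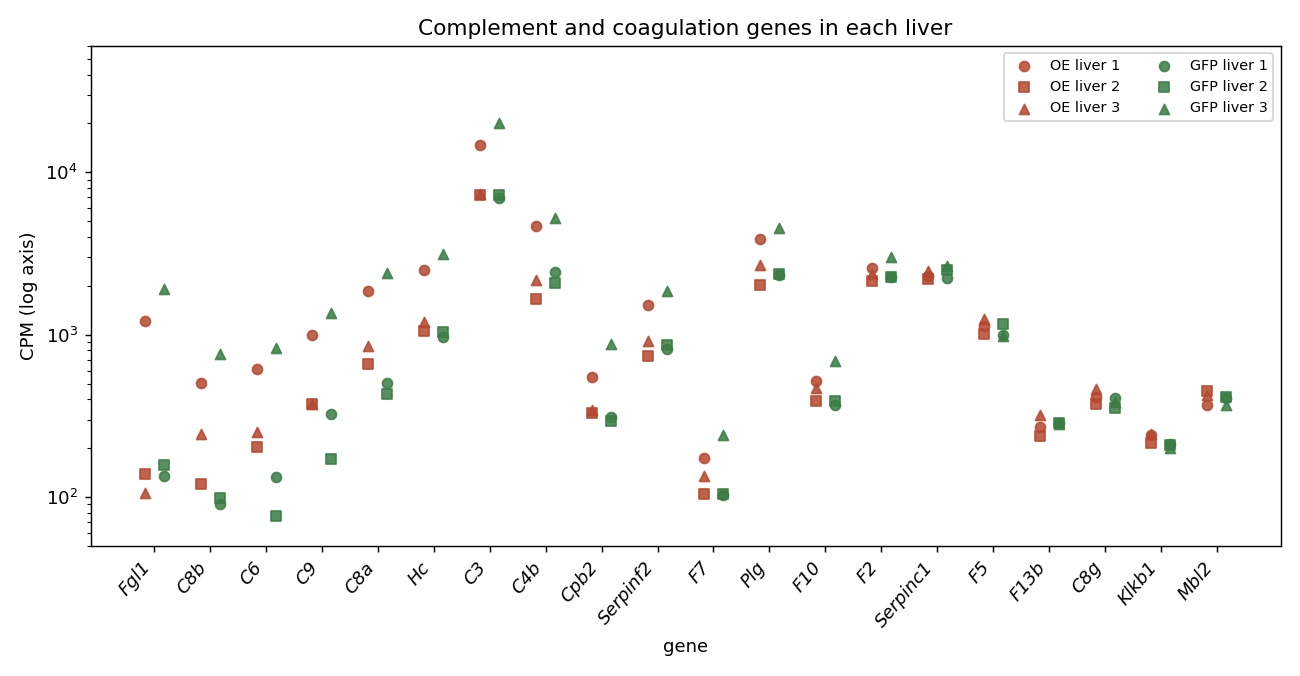
CPM of 20 of the 41 genes in each of the 6 livers on a log axis, ordered roughly from the most to the least raised in GFP liver 3, with OE livers left of GFP livers for each gene and a marker shape per replicate. OE liver 1 and GFP liver 3 lie above the other livers for Fgl1, C8b, C6, C9 and C8a, and among the others for C8g and F13b. For Mbl2 they are the lowest of the 6, and for F5 and Klkb1 GFP liver 3 is the lowest while OE liver 1 lies among the others.

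The median ratios of these livers differed between the cascades, the ratios of single genes overlapped, and the difference was not tested. Fgl1 had 1221, 139 and 105 CPM in OE livers, against 135, 156 and 1917 CPM in GFP livers. OE liver 1 was 9.98 times the mean of the other OE livers, and GFP liver 3 was 13.2 times that of the other GFP livers. C8b had 506, 119 and 244 CPM in OE livers, against 90.2, 99.1 and 764 CPM in GFP livers, and C6 had 616, 203 and 251 CPM in OE livers, against 133, 76.1 and 832 CPM in GFP livers. Over the 6 terminal complement genes the median ratio was 2.58 for OE liver 1 and 5.30 for GFP liver 3, although C8g stood at 0.99 in OE liver 1 and 1.01 in GFP liver 3. Over the 20 complement members the median ratio was 1.65 for OE liver 1 and 2.25 for GFP liver 3. Over the 21 coagulation and fibrinolysis members, with Fgl1 counted among them, it was 1.21 for OE liver 1 and 1.54 for GFP liver 3. Cpb2, of the latter, had 1.63 in OE liver 1 and 2.91 in GFP liver 3. The contact factor F11 had ratios of 1.78 in OE liver 1 and 2.43 in GFP liver 3, and its neighbour Klkb1 had 1.06 in OE liver 1 and 0.95 in GFP liver 3. Mbl1 had 1.95 in OE liver 1 and 2.21 in GFP liver 3, and Mbl2 0.84 in OE liver 1 and 0.90 in GFP liver 3. F5, F13b and Serpinc1 had ratios between 0.91 and 1.12 in both.

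The sign of the liver comparison changed with the libraries included. Without GFP liver 3, 38 members were positive and 3 negative, with a median log2 fold change of 0.28, and without OE liver 1, 6 were positive and 35 negative, with a median of -0.29. Without both, 30 were positive and 11 negative, with a median of 0.09. Leaving out OE liver 2 also turned the median, to 0.05. No member was called in any of these fits. The smallest p-values without both libraries were those of C6, C8b and C8a, at 1.12, 0.95 and 0.69 on the log2 scale, each with an unadjusted p under 0.05, and the smallest edgeR adjusted p among the members was 0.811. The fit without both was not planned. It leaves out the libraries in which these genes were highest, with GFP liver 3 at 7.94, 8.07 and 5.12 times the mean of the other GFP livers. In that fit 1 gene of 14037 was called, 0.00712%.

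**Figure D5:**
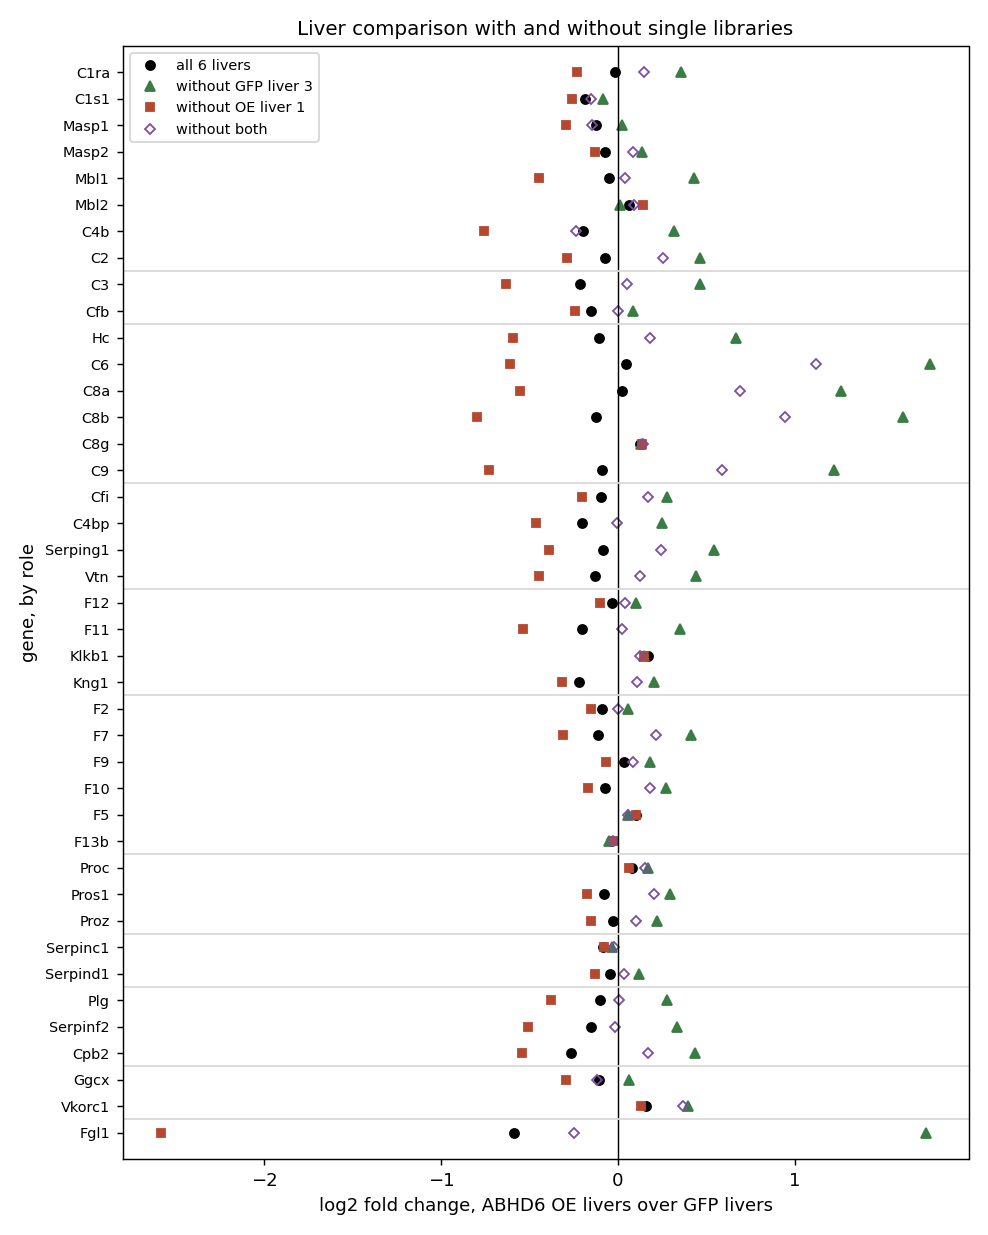
Log2 fold change of each of the 41 genes in OE over GFP livers on the x axis, by role down the y axis, with all 6 livers (black circles), without GFP liver 3 (triangles), without OE liver 1 (squares) and without both (diamonds). The triangles lie mostly right of 0, with a median of 0.28, and the squares mostly left, with a median of -0.29.

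Whether a member responded differently to overexpression in livers and to knockdown in cultures was tested as a contrast of the responses over all 12 libraries. No member was called, and 0.125% of 15244 genes were, 0.0984% higher and 0.0262% lower (edgeR's quasi-likelihood test, Benjamini-Hochberg adjusted p under 0.05). With the spread of all 12 libraries, 0 members were called even for the knockdown itself. The contrast therefore could hardly detect differences of that size, and its outcome does not show that the responses were alike. Overexpression and knockdown change ABHD6 in opposite directions, so opposite responses would also count as a difference here. DESeq2, which called 0.768% of genes, and limma-voom also called 0 members. The smallest p was that of Ggcx, whose response in livers minus that in cultures was 0.55 on the log2 scale (SE 0.24, unadjusted p of 0.0401, edgeR adjusted p = 0.690), the only member with an unadjusted p under 0.05. Ggcx had 131, 83.2 and 102 CPM in OE livers, against 102, 99.7 and 139 CPM in GFP livers, with overlapping groups, where its siABHD6 cultures were all below the siScramble cultures. C8a, the member with the largest decrease in siABHD6 cultures, had 1861, 656 and 846 CPM in OE livers, against 503, 430.3 and 2388 CPM in GFP livers (log2 fold change 0.02, SE 0.72). Plg, the member with the largest increase there, had 3861, 2019 and 2699 CPM in OE livers, against 2339, 2375 and 4525 CPM in GFP livers (log2 fold change -0.10, SE 0.36). In both genes the liver groups overlapped, and OE liver 1 and GFP liver 3 were the highest of the 6. Without GFP liver 3, 11 members had an unadjusted p under 0.05 for this contrast, and the smallest edgeR adjusted p was 0.0986, that of C8a. That fit called 0 members and 58 of 15608 genes. The share of all genes at that unadjusted p is not given for it, and was 6.98% with all 12 libraries. GFP liver 3 was the highest of its group for 36 members, and leaving it out moved the members' median from -0.16 to 0.18. With no such share for this fit, the 11 are not read as a result, and the part of GFP liver 3 in them was not tested.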

How the data were processed

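The authors deposited 1 table of raw counts per gene for 12 poly-A RNA libraries, with no normalization, and FPKM values that the authors derived from those counts with an extra factor per library (0.671 to 0.780 of the total in livers, 1.25 to 1.27 in cultures). Per the submitters' processing notes, HISAT2, DESeq2 and build mm39 were used, and the counting program, annotation and strandedness are not given in the sources used here. The 41 members were found by gene name, and the members and lists were chosen with earlier results of these data known.

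Comparisons used edgeR 4.0.16 (R 4.3.3) on the 6 libraries concerned, with filterByExpr, TMM and quasi-likelihood F tests, adjusted by Benjamini-Hochberg over all genes tested and called at an adjusted p under 0.05, and all 41 members passed the filter in each. The contrast of the responses used all 12 libraries. SE is the fold change over the root of F. CPM uses TMM effective sizes of all 12 libraries. Alternatives used limma 3.58.1 and DESeq2 1.42.0, the deposited FPKM on the log2(FPKM + 1) and log2(FPKM + 0.1) scales, other scalings and filters, a replicate block and each library left out. The fits were also run on simulated data with independent noise in each library, and the outcome is not given here. Those data lack the pattern shared by OE liver 1 and GFP liver 3, so they cannot show how the liver fits behave with it. Genes given with values in every sample were the 6 largest increases and 6 largest decreases called in siABHD6 cultures, the 3 smallest p in each direction in livers, and the 10 largest decreases and 4 smallest absolute folds between siScramble cultures and GFP livers, and C3, C8b, Cpb2, Fgl1, Vkorc1 and further liver values were added after their values were seen. Promoter motifs were searched on both strands with Python 3.11.15. Replicate numbers were not taken as pairs in the main fits. Some results on genes outside the 41 and some motifs are not reported here.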

Additional observations from a re-analysis of the deposited data

How the results depend on the processing

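Between siABHD6 and siScramble cultures, 10 to 14 members were higher and 3 to 6 were lower when each library was left out in turn, against 12 and 6. With the deposited FPKM and limma, 3 were lower at either pseudocount. With 1 fit over all 12 libraries, 0 were higher and 0 were lower, and the spread of the livers enters that fit. Between siScramble cultures and GFP livers, 0 to 3 members were higher and 34 to 36 were lower with each library left out, the 3 being those without GFP liver 3, and library totals alone also gave 3 higher. With each library left out, Pros1 ran from -0.29 to 0.24 and C2 from -0.47 to 0.29, both positive without GFP liver 3. Members that reversed also included Pros1 at 0.71 and Cfb at 0.65 with library totals, where all genes shifted by the amount given above. In the livers and for the contrast of the responses, every alternative run called 0 members. Where a group was left with 2 libraries, the fit pooled the spread. The cause of these changes was not tested.

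Over genes, the deviations of same-numbered samples from their group means had correlations of 0.00, 0.01 and 0.02 between siABHD6 and siScramble cultures. Between OE and GFP livers they were -0.43, 0.42 and -0.15 for numbers 1, 2 and 3. Each mean is over 3 libraries, and OE liver 1 and GFP liver 3 stood apart. The liver values therefore cannot show whether the numbers pair the livers. With a replicate block, 14 members were higher and 5 lower between siABHD6 and siScramble cultures, 0 were called between OE and GFP livers, and 35 were lower between siScramble cultures and GFP livers. Those fits called 2124 of 13449 genes between siABHD6 and siScramble cultures and 9384 of 14215 between siScramble cultures and GFP livers.

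Depth limited Vkorc1, with 13 to 129 counts per library, and Cfb, with 82 to 158. In the cultures it also limited Mbl1, with 55 to 83 counts, and Klkb1, with 59 to 90. Their SEs between siABHD6 and siScramble cultures were 0.19 for Mbl1 and 0.18 for Klkb1.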

Other observations

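Transcription factors known to act on liver-expressed genes were measured on a list of 15. In siABHD6 against siScramble cultures 5 were higher, against 7.81% of all genes tested. They were Nr1i2 at 0.35, Hnf4a at 0.23, Foxa1 at 0.23, Cebpb at 0.21 and Stat3 at 0.18 on the log2 scale. Hnf4a had 266, 260.3 and 261 CPM in siABHD6 cultures, against 218, 229 and 216 CPM in siScramble cultures, without overlap. In siScramble cultures against GFP livers, 12 of the 15 were lower and 0 higher, against 36.9% and 33.3% of all genes tested. The lower ones included Cebpa at -3.38 and Hnf4a at -1.80.

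Of 21 acute-phase genes, 20 could be tested between siABHD6 and siScramble cultures. Of these, 8 were higher and 3 were lower, against 7.81% and 7.61% of all genes tested. Hp, haptoglobin, at 0.49 and Saa4 at 0.26 were among the higher ones, and Steap4 at -0.86, Apcs at -0.71 and Crp at -0.40 were the lower ones.

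C1rb, the near copy of the member C1ra, had 8, 9 and 587 counts in OE livers 1, 2 and 3, against 6, 5 and 7 counts in GFP livers, and 5, 4 and 3 counts in siABHD6 cultures, against 4, 2 and 10 counts in siScramble cultures. OE liver 3 alone was high, while C1ra had 416, 235 and 324 CPM in OE livers, against 256, 251 and 483 CPM in GFP livers, where OE liver 3 lay between the other OE livers. This gene was picked after its values were seen.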
